A study of Mus musculus with 14 samples.

Results

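Nuclear receptors are transcription factors, most of which are switched by a small lipid-soluble ligand. The 35 receptor genes described here are a named list from the 54332 genes in the RNA table of a time course in which SOX9 was switched on in EpdSCs, the stem cells of mouse interfollicular epidermis. All 35 were found in the table, and 24 of them had enough RNA to be tested. The 10 libraries of this time course are 2 biological replicates each of D0, taken before doxycycline (DOX), and of 1, 2, 6 and 12 weeks on it (W1, W2, W6 and W12). All groups were CD1 mice labelled male, of genotype K14rtTA; TRE-myc-Sox9, in which the *Krt14* promoter drives the DOX-dependent activator and the activator drives a MYC-tagged *Sox9* transgene. DOX was injected at postnatal day 21 and then given in feed, so that D0, W1, W2 and W6 mice were 21, 28, 35 and 63 days old and age rose with time on DOX. At W12 the skin was transgenic skin of newborns that had been grafted onto Nude female hosts and left to heal before DOX, so that grafting and 12 weeks of SOX9 cannot be told apart. Back skin EpdSCs were sorted as CD49f-high, Ly6A-high and CD34-negative cells that lacked CD31, CD45, CD117 and CD140a. No RNA of age-matched mice without SOX9 was analysed here, and how many mice were pooled for a library was not given.

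A nuclear receptor binds DNA through a pair of zinc fingers and its ligand through a pocket in the carboxy-terminal domain, and ligand exchanges corepressor complexes for coactivators. Receptors for vitamin D, retinoic acid, thyroid hormone, fatty acids and oxysterols work as heterodimers with a retinoid X receptor (RXR). Steroid receptors work as homodimers that are held by chaperones until hormone binds. Others, such as the NR4A and REV-ERB groups, act largely through how much of them is made. In skin, the vitamin D receptor is needed for hair cycling, retinoids and their receptors set the pace of keratinocyte differentiation, and glucocorticoids act through their receptor on inflammation and barrier formation.

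Values are TPM, a transcript abundance in which each library sums to the same total and gene length is taken out, so that genes can be compared with each other. TPM carry no depth, so the depth of each library is unknown and no counting interval can be given. The transgene, listed as MYC-SOX9, had 89.6 and 45.6 TPM at D0 and 606 to 3414 TPM in the 8 libraries on DOX. D0 replicate 2 went against its male label. Its *Xist* RNA was 4.61 TPM and its *Ddx3y* RNA, which comes from the Y chromosome, 0.0278 TPM, where D0 replicate 1 had 0.00103 and 32.1 TPM. Both W12 libraries listed *Xist* as well (5.51 and 3.50 TPM) together with *Ddx3y* (10.97 and 12.9 TPM). In the W1, W2 and W6 libraries *Ddx3y* was 21.9 to 32.7 TPM and *Xist* at most 0.00665 TPM. The part of RNA from female cells in the W12 levels was not tested, and it limits all comparisons with W12. The D0 libraries also stood apart in their immediate-early RNAs (*Fos* and the like), which summed to 35717 and 57787 TPM over 20 genes at D0 and to 7024 to 15778 TPM in the other 8 libraries. The fits against D0 were therefore repeated without D0 replicate 2, and the calls this ended are given beside the results. Where that library is left out, D0 is a single library whose spread is taken from the other timepoints.

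Receptor RNA was spread over a wide range of levels. At D0 the orphan receptor *Nr4a1* led with a mean of 2583 TPM, followed by *Rarg* (144 TPM), *Rora* (139 TPM), *Nr2f6* (137 TPM), *Rxra* (112 TPM) and *Nr1h2* (102 TPM). The 34 receptors without *Nr4a1* summed to 855 and 1302 TPM at D0, 1053 and 999.8 at W1, 1015 and 1001 at W2, 696 and 539 at W6 and 407 and 426 at W12. Both W6 and both W12 sums lay below all of the earlier ones, and both W12 sums below both W6 sums. By W12, *Nr2f6* (69.8 TPM) and *Nr1h2* (69.6 TPM) came after *Nr4a1* (237 TPM), and *Rarg* and *Rxra* had dropped to the eighth and ninth place. Changes were tested with limma on log2(TPM + 1), on which the change of a low gene comes out too small, over the 13110 genes whose mean reached 1 TPM. All changes are differences on this scale and are printed with their sign, falls included. Some genes reach that mean through 1 timepoint, with a mean under 1 TPM in the other 8 libraries. A test of such a gene against that timepoint is not independent of the filter, so the levels of those named are given with no test, and they are left out of the counts and medians of the gene lists below. Of the receptors, *Esr1* and *Nr1h3* are such genes. The others named are *S100g*, *Crabp1*, *Lrat*, *Hsd17b2*, *Dio2*, *Fabp4*, *Cd36* and *Pecam1*. A gene was said to rise or fall at an adjusted *P* under 0.05 (Benjamini-Hochberg over all of these genes).

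The receptors moved mostly downwards, and late. At W1, 1 of the 24 tested rose and 2 fell, where 5.79% of all genes tested rose and 4.10% fell. At W2, 2 rose and 6 fell, against 9.06% and 6.64% of all genes. At W6, 2 rose and 12 fell, against 18.3% and 14.1%. At W12, 1 rose and 15 fell, against 17.9% and 25.1%. These comparisons share the D0 libraries. The shares of all genes in this paragraph also apply to the counts of the gene lists below. *Esr1* is among those that fell at W1, W2 and W6, and without it 1, 5 and 11 fell. Between the later timepoints no receptor rose. From W2 to W6, 4 fell, where 7.99% of all genes rose and 8.31% fell, and from W6 to W12, 6 fell, against 6.66% and 13.5%. In limma's F test over all 5 timepoints, 19 of the 24 varied with time, or 18 of the 22 without *Esr1* and *Nr1h3*, against 57.5% of all genes. The median log2 change of the 24 receptors was −0.14, −0.16, −0.82 and −0.94 at W1, W2, W6 and W12, beside 0.09, 0.06, 0.08 and −0.08 over all genes. With D0 replicate 2 left out, 2 receptors rose and 1 fell at W1, where 4.45% and 3.41% of all genes rose and fell, 3 rose and 1 fell at W2 (6.35% and 4.51%), and 8 fell and none rose at W6 (10.01% and 7.96%) and again at W12 (11.6% and 16.9%). The median change of the receptors without that library turned to 0.18 at W1 and was −0.02, −0.52 and −0.70 at W2, W6 and W12, beside 0.07, 0.03, 0.05 and −0.13 over all genes. After median-ratio scaling of the libraries the counts of receptors that rose and fell were 1 and 2 at W1 (against 4.19% and 5.16% of all genes), 2 and 6 at W2 (7.19% and 8.55%), 1 and 12 at W6 (14.6% and 17.8%), 1 and 14 at W12 (19.5% and 24.5%), and from W6 to W12 0 and 3 (8.11% and 6.42%). The same scaling moved the share of higher genes among all genes called from 58.6% to 44.8% at W1, from 57.7% to 45.7% at W2, from 56.5% to 45.2% at W6 and from 33.0% to 55.8% from W6 to W12, and the median change of all genes from W6 to W12 from −0.16 to −0.02.

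**Figure D1:**
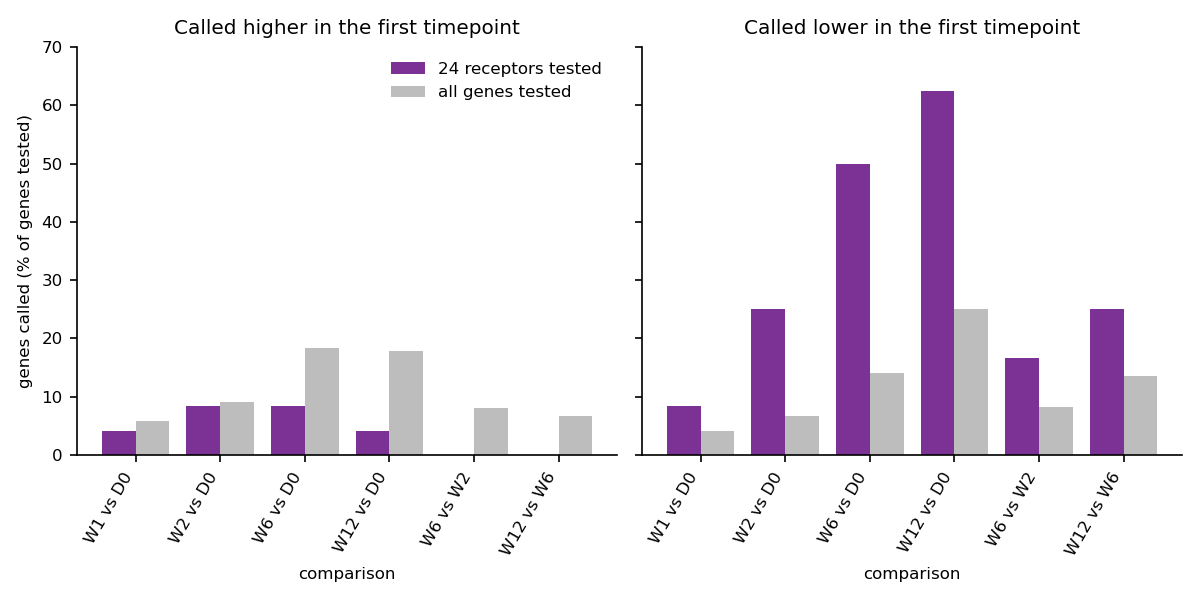
Share of genes called at an adjusted *P* under 0.05 (y axis, % of genes tested) in each of 6 comparisons (x axis), with genes higher in the first timepoint named on the left and lower on the right. Purple bars are the 24 receptors tested and grey bars the 13110 genes tested. The lower bars for W1, W2 and W6 against D0 include *Esr1*, which passed the filter through D0, so that its test is not independent of the filter. Without *Esr1* and *Nr1h3*, 1, 5 and 11 of 22 receptors fell in these comparisons. For W12 against D0, 62.5% of the receptors fell, beside 25.1% of all genes, and 4.17% rose, beside 17.9%.

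**Figure D2:**
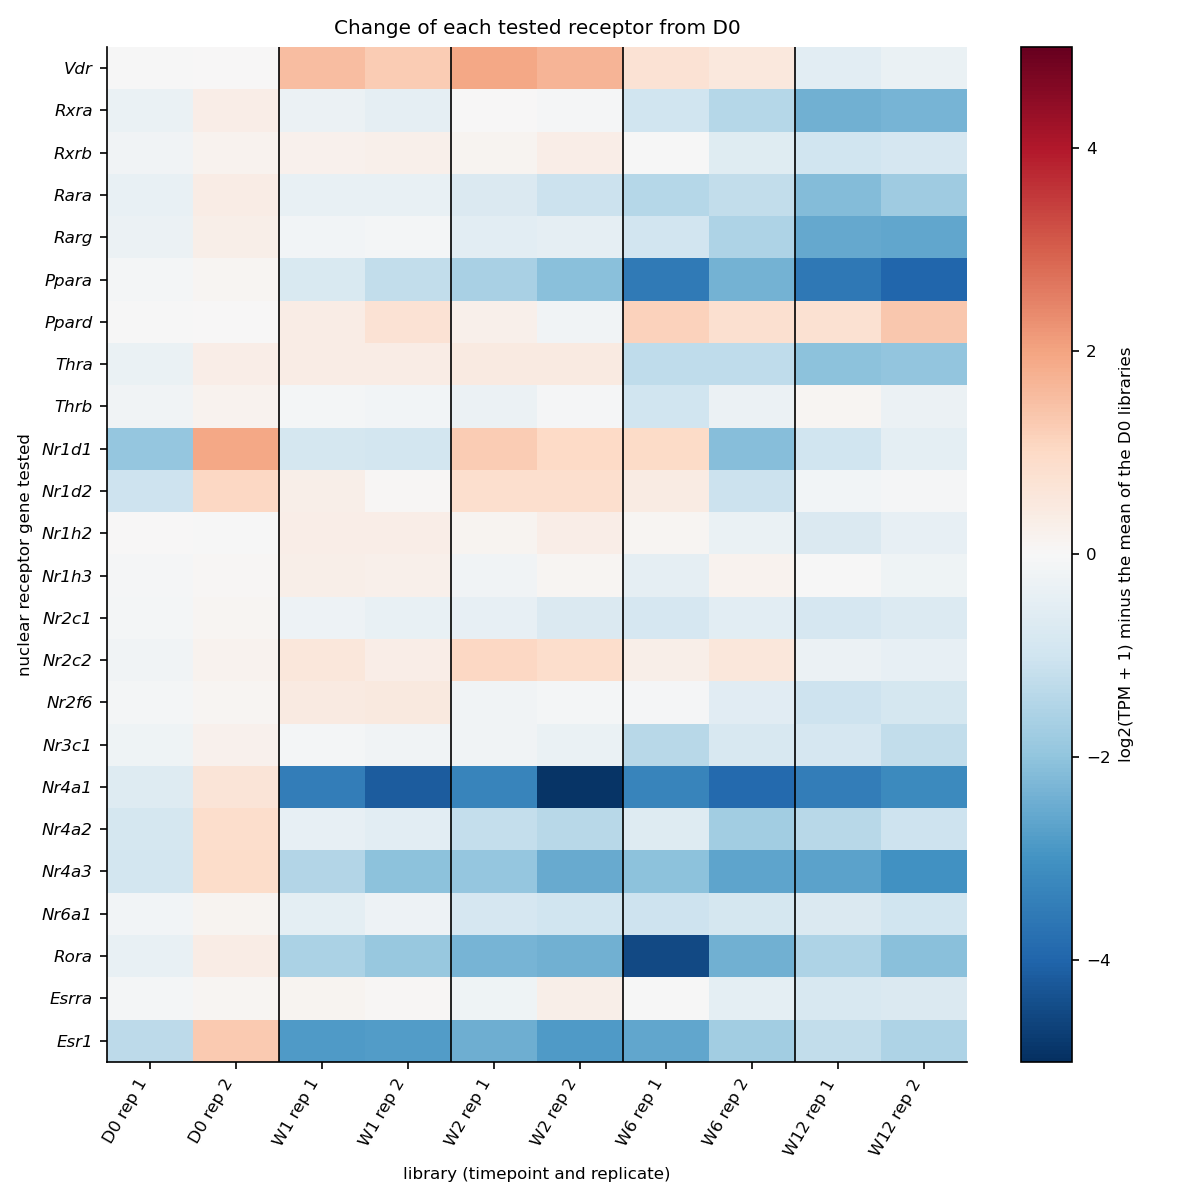
Each of the 24 receptors tested (rows) in each of the 10 libraries (columns, in timepoint order), as log2(TPM + 1) minus the mean of the D0 libraries, with red above and blue below it and the colour scale running from −5 to 5. *Vdr* is red at W1 and W2, *Nr4a1*, *Nr4a3*, *Rora* and *Ppara* are blue from W1 on, and *Rxra*, *Rara*, *Rarg* and *Thra* are blue at W6 and W12; the D0 libraries differ from each other most in *Nr1d1*.

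*Vdr*, the receptor for the active form of vitamin D and the listed receptor with the largest early rise, lies on chromosome 15, 97854425 to 97910630 (GRCm38, minus strand). Its RNA was 50.0 and 51.5 TPM at D0, 149 and 124 at W1, 198 and 166 at W2, 84.0 and 73.1 at W6 and 35.2 and 40.3 at W12. The replicates lay close together at every timepoint, both W1 and both W2 libraries were above every library of the other timepoints, and the W12 libraries were the lowest. The rise from D0 was 1.40 (standard error 0.16, adjusted *P* = 0.00131) on the log2(TPM + 1) scale at W1 and 1.82 (standard error 0.16, adjusted *P* = 0.000309) at W2 (limma with Benjamini-Hochberg adjustment). At W6 *Vdr* was still higher than at D0, by 0.62 (standard error 0.16, adjusted *P* = 0.0186), while it fell by −1.20 (standard error 0.16, adjusted *P* = 0.00390) from W2 to W6 and by −1.04 (standard error 0.16, adjusted *P* = 0.00384) from W6 to W12. At W12 its change from D0 was −0.42 and missed the threshold (adjusted *P* = 0.0593). The W1 and W2 rises and the fall from W6 to W12 were called under all alternatives tried. The W6 rise had an adjusted *P* above the threshold without D0 replicate 2 (0.0551) or W6 replicate 1 (0.0711), and 0.0828 after median-ratio scaling, and the fall from W2 to W6 did so without W2 replicate 1 (0.0515).

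The 250 bases before the *Vdr* start in RefSeq (chr15:97908297-97908546, minus strand, GRCm38.p6), which lies inside the longer GENCODE gene, are shown because *Vdr* was the receptor that rose most. Capitals mark GGGCGG, the GC box bound by SP factors, searched on both strands. The motif was chosen after the sequences had been seen. The window holds 3 matches. Of the 32851 RefSeq promoter windows of this length, 8.47% hold 3 or more and 32.7% hold at least 1. Of the 50 windows of the 33 receptors with a RefSeq start, 24 hold at least 1. Windows of receptors that fell hold as many or more, such as those of *Rxra* (3), *Rarg* (3) and *Nr2f6* (7).
Vdr promoter: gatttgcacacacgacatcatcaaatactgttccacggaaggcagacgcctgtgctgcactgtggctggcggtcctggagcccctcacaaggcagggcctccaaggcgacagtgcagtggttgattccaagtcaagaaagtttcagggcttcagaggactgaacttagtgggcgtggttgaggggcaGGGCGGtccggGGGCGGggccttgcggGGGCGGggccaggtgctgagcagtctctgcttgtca

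Few of the genes around vitamin D had enough RNA to be tested. Of 6 genes that make, carry or degrade vitamin D, 3 were tested. *Cyp27a1*, a sterol hydroxylase of this pathway, had 8.30 and 0.951 TPM at D0, 9.72 and 14.0 at W1, 17.3 and 20.2 at W2, 35.4 and 18.1 at W6 and 13.2 and 14.9 at W12. The D0 replicates lay far apart, and all later libraries were above both. It rose by 2.63 (adjusted *P* = 0.0131) at W6, which was 1.504 (adjusted *P* = 0.0331) without D0 replicate 2, while its W2 change of 2.21 (adjusted *P* = 0.0437) was 1.08 (adjusted *P* = 0.113) without that library. *Dhcr7*, which takes the precursor away towards cholesterol, fell by −1.06 (adjusted *P* = 0.0466) at W1, a call lost without D0 replicate 2 (0.0709), and by −1.16 (adjusted *P* = 0.0103) at W12. *Cyp24a1*, the enzyme that degrades the hormone and is itself a classic VDR target, had at most 0.0702 TPM in any library. Of 8 VDR target genes, 5 reached the mean of 1 TPM. *S100g*, which encodes a calcium-binding protein, had 0.179 and 0 TPM at D0, 3.68 and 7.75 at W1, 0.771 and 1.21 at W2, 0.157 and 0.350 at W6 and 0.392 and 1.27 at W12, and its W1 libraries were the highest. The calcium channel gene *Trpv6* fell by −1.02 (adjusted *P* = 0.0405) at W1, a call lost without D0 replicate 2 (0.108) and after quantile normalization (0.0530). Of the 4 targets without *S100g*, 1 rose (*Slc37a2*, by 0.95 (adjusted *P* = 0.0163)) and 1 fell (*Trpv6*, by −1.05 (adjusted *P* = 0.0271)) at W2, and 3 rose at W6 (*Fbp1* by 2.46 (adjusted *P* = 0.00538), *Cd14* by 1.59 (adjusted *P* = 0.0152) and *Slc37a2* by 1.52 (adjusted *P* = 0.00115)). *Cd14* went on to 185 and 443 TPM at W12, where *Cd74*, a gene of antigen-presenting cells, was at 102 and 124 TPM, against 2.09 to 26.4 TPM in the earlier libraries. The other 7 immune markers summed to 0.639 and 1.54 TPM at W12 and to 1.30 to 2.26 TPM before; the part of other cells in the level of *Cd14* was not tested. When D0 replicate 2 was left out, none of these 4 was called at W1 or W2, *Fbp1* and *Slc37a2* rose at W6, and *Cd14* rose at W12.

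The retinoid X receptors, partners of the vitamin D, retinoic acid, thyroid hormone, PPAR and LXR receptors, did not move alike. *Rxra* stayed near its D0 level until W2 and was lower at W6 and W12, and *Rxrb* was lower at W12. *Rxra* (chromosome 2, 27676440 to 27762957) had 85.5 and 139 TPM at D0, 89.9 and 79.0 at W1, 109 and 104 at W2, 54.6 and 40.3 at W6 and 19.9 and 21.2 at W12. D0 overlapped with both W1 and W2, both W6 libraries lay below all 6 of these, and both W12 libraries below those of W6. Against D0 it fell by −1.20 (standard error 0.23, adjusted *P* = 0.00607) at W6 and by −2.36 (standard error 0.23, adjusted *P* = 0.000149) at W12 (limma with Benjamini-Hochberg adjustment). It also fell from W2 to W6, by −1.17 (standard error 0.23, adjusted *P* = 0.0161), and from W6 to W12, by −1.16 (standard error 0.23, adjusted *P* = 0.0120). *Rxrb* had 51.6 and 67.4 TPM at D0, 68.6 and 70.2 at W1, 65.1 and 73.7 at W2, 57.8 and 38.4 at W6 and 28.8 and 32.4 at W12. Both W12 libraries lay below all others, and *Rxrb* fell by −0.93 (standard error 0.21, adjusted *P* = 0.00831) at W12. *Rxrg* had at most 0.0582 TPM in any library and was not tested. The W6 fall of *Rxra* against D0 lost its call when only the libraries compared were fitted (adjusted *P* = 0.0771). The step from W2 to W6 of *Rxra* lost its call without W2 replicate 1 (0.113), W2 replicate 2 (0.0900) or W6 replicate 2 (0.0710), the step from W6 to W12 without W6 replicate 1 (0.0612), W12 replicate 1 (0.0858) or W12 replicate 2 (0.0529), and the fall of *Rxrb* without D0 replicate 2 (0.0525) or W12 replicate 1 (0.0599).

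Of the retinoic acid receptors, which pair with RXR and are opened by all-trans retinoic acid, *Rarg* was the main form in these cells. Its RNA (chromosome 15, 102234938 to 102257517) was 114 and 175 TPM at D0, 129 and 131 at W1, 97.8 and 104 at W2, 73.2 and 47.7 at W6 and 23.3 and 22.7 at W12. Both W6 libraries were below all earlier ones, and the W12 libraries, which lay close together, were the lowest. *Rarg* fell by −1.24 (standard error 0.24, adjusted *P* = 0.00568) at W6 and −2.57 (standard error 0.24, adjusted *P* = 0.000104) at W12 against D0, and by −1.32 (standard error 0.24, adjusted *P* = 0.00759) from W6 to W12. *Rara* followed a similar course at a lower level, with 18.1 and 31.2 TPM at D0, 18.4 and 18.1 at W1, 14.1 and 10.7 at W2, 8.25 and 9.45 at W6 and 4.50 and 6.31 at W12. From W2 on, all of its libraries were below both D0 libraries, and *Rara* fell by −1.33 (standard error 0.27, adjusted *P* = 0.00710) at W6 and −1.97 (standard error 0.27, adjusted *P* = 0.000764) at W12. *Rarb*, which retinoic acid itself induces in many cells, was not tested, since it was at or below 0.131 TPM in 7 libraries and reached 1.12 TPM in W6 replicate 2 and 0.344 and 0.307 TPM at W12. In W6 replicate 2 the fibroblast gene *Dcn* was at 51.2 TPM, the highest of the 10 libraries. The fall of *Rarg* from W6 to W12 lost its call without W12 replicate 1 (0.0559), and the falls of *Rarg* and *Rara* against D0 were called when any single library was left out, while those at W6 were lost when only the libraries compared were fitted (adjusted *P* = 0.0762 and 0.0732).

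The promoter of *Rarg* (chr15:102257523-102257772, minus strand, GRCm38.p6) is shown because it is the more abundant of the pair that fell and because 1 of its 2 windows, the one printed, holds the hexamer AGGTCA, the core to which receptors of this kind bind. Capitals mark the match, which reads TGACCT on the strand printed. The hexamer was searched on both strands, and 14.0% of all 32851 windows of 250 bases hold it, as do 9 of the 50 windows of the 33 receptors with a RefSeq start in the table used here. ACAAT, the core of SOX binding sites, was found in 27.7% of all windows and in 10 of these 50. The other RefSeq window of *Rarg* (chr15:102246501-102246750, minus strand) holds none of the motifs searched. No match of one searched motif shared a base with a match of another.
Rarg promoter: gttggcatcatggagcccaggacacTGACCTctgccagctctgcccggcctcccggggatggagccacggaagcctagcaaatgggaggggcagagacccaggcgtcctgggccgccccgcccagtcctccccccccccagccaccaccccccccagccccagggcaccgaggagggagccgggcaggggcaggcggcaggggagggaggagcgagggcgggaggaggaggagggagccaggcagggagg

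Some genes that bind and handle retinoids rose over the same timepoints. Of 17 such genes 12 reached the mean of 1 TPM, 3 of them through 1 timepoint. Of the other 9, 3, 4, 6 and 6 rose at W1, W2, W6 and W12, and 1 (*Dhrs3*, which turns retinal back into retinol) fell at W6 and at W12. *Dhrs3* had 43.2 and 54.3 TPM at D0, 58.4 and 67.8 at W1, 46.0 and 40.1 at W2, 24.8 and 31.5 at W6 and 22.4 and 27.7 at W12. The median log2 change of the 9 at W12 was 2.06, beside −0.08 over all genes. *Crabp2*, which delivers retinoic acid to its receptors in the nucleus, had 10.3 and 5.31 TPM at D0, 56.8 and 106 at W1, 81.7 and 109 at W2, 529.6 and 249 at W6 and 273 and 358 at W12. Its lowest library on DOX was above both D0 libraries, and the rise was 3.21 (adjusted *P* = 0.00269) at W1 and 5.21 (adjusted *P* = 5.98e-05) at W12. *Fabp5*, which carries fatty acids and retinoic acid towards PPARdelta, had 126 and 53.0 TPM at D0, 102 and 186 at W1, 109 and 144 at W2, 1670.0 and 1386 at W6 and 3111 and 2729 at W12. W1 and W2 overlapped D0 in level, and the W6 and W12 libraries lay far above, by 4.20 (adjusted *P* = 0.000229) and 5.14 (adjusted *P* = 4.44e-05), and by 3.59 (adjusted *P* = 0.000896) and 4.53 (adjusted *P* = 0.000254) without D0 replicate 2. *Rdh10*, an enzyme that oxidises retinol, rose by 1.83 (adjusted *P* = 0.00913) at W1. *Aldh1a3*, which makes retinoic acid, rose by 1.43 (adjusted *P* = 0.00996) from W6 to W12. The retinoic acid binding protein gene *Crabp1* had 0.185 and 0.0603 TPM at W6 and 8.63 and 5.71 at W12, and *Lrat*, which stores retinol as ester, 2.18 and 1.86 at W6 and 5.33 and 5.49 at W12. The counts without D0 replicate 2 were 3, 3, 6 and 6 higher, and 1 lower at W12.

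**Figure D3:**
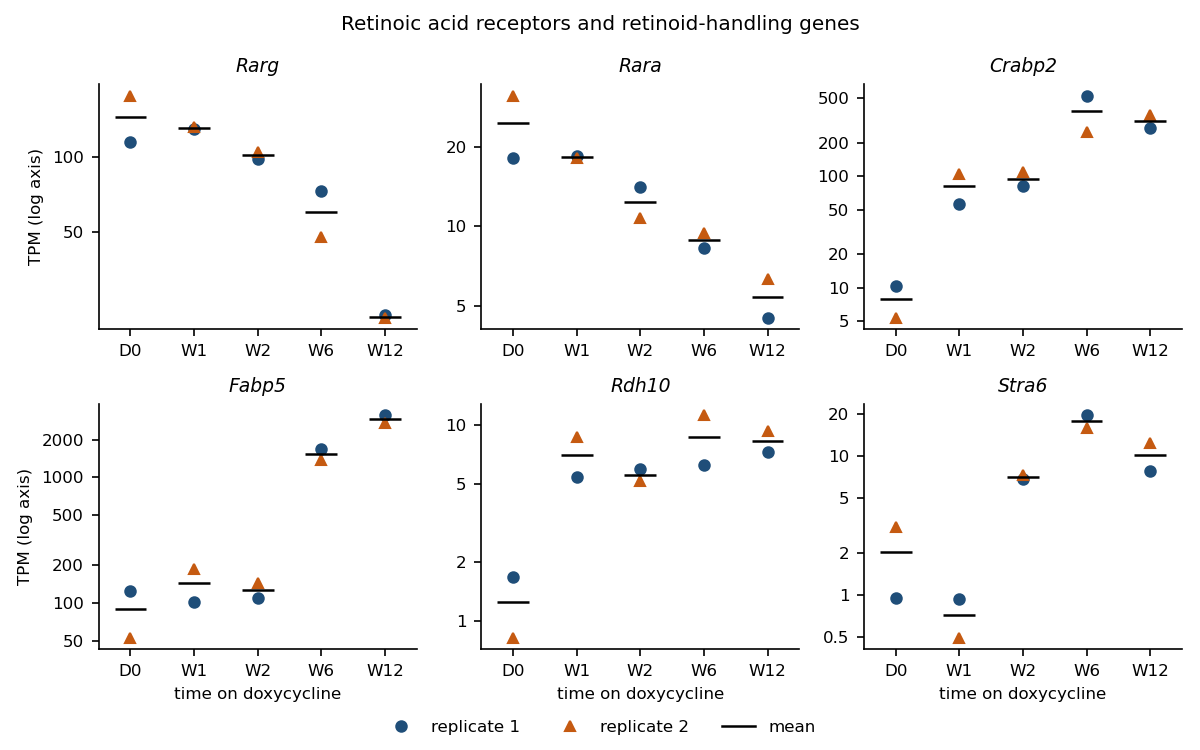
TPM (log axis) of the retinoic acid receptors *Rarg* and *Rara* and of *Crabp2*, *Fabp5*, *Rdh10* and the retinol transporter gene *Stra6* in each library, by time on doxycycline, with a circle for replicate 1, a triangle for replicate 2 and a bar for the mean. Both receptors step down to W12, while *Crabp2* and *Rdh10* are above D0 in all 8 later libraries and *Fabp5* in the W6 and W12 libraries.

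The PPARs, receptors for fatty acids and their derivatives, moved in opposite directions. *Ppara*, the form that drives fatty acid oxidation, had 22.3 and 25.1 TPM at D0, 13.6 and 9.42 at W1, 6.95 and 4.83 at W2, 1.13 and 3.79 at W6 and 1.09 and 0.572 at W12. All 8 later libraries were below both D0 libraries, and the W12 libraries were the lowest. The fall from D0 was −0.998 at W1, which missed the threshold (adjusted *P* = 0.139), and −1.86 (standard error 0.38, adjusted *P* = 0.0132) at W2, −2.95 (standard error 0.38, adjusted *P* = 0.000902) at W6 and −3.77 (standard error 0.38, adjusted *P* = 0.000156) at W12 (limma with Benjamini-Hochberg adjustment). *Ppard*, the form most tied to keratinocyte differentiation and wound response, was low, with 1.01 and 1.10 TPM at D0, 1.64 and 2.42 at W1, 1.47 and 0.815 at W2, 3.62 and 2.63 at W6 and 2.50 and 4.25 at W12. Its W6 and W12 libraries lay above both D0 libraries, and it rose by 0.99 (standard error 0.29, adjusted *P* = 0.0290) at W6 and 1.06 (standard error 0.29, adjusted *P* = 0.0170) at W12. *Pparg*, the form of fat cells and sebocytes, was under the filter, with 0.176 and 0.282 TPM at D0, 0 and 0 at W1, 0.514 and 0.192 at W2, 1.07 and 0.143 at W6 and 0.931 and 1.11 at W12. The calls of *Ppard* were lost without D0 replicate 1 (0.0717), D0 replicate 2 (0.0951) or W6 replicate 1 (0.0987) at W6 and without D0 replicate 1 (0.0504), D0 replicate 2 (0.0602) or W12 replicate 2 (0.109) at W12, and that of *Ppara* at W2 without D0 replicate 2 (0.0615) or W2 replicate 2 (0.105).

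Of 14 PPAR target genes, 2 (*Fabp4* and *Cd36*) passed the filter through W12. Of the other 12, 2 rose and 1 fell at W1, 3 rose and 2 fell at W2, 2 fell at W6, and 2 rose and 5 fell at W12. *Pdk4*, which diverts pyruvate from oxidation, rose by 1.89 (adjusted *P* = 0.0205) at W2, and *Acadm*, an enzyme of fatty acid oxidation, fell by −0.87 (adjusted *P* = 0.00171) at W6. At W12 the gene of a lipoprotein lipase inhibitor, *Angptl4*, rose by 2.21 (adjusted *P* = 0.000493). The fatty acid carrier genes *Fabp4* and *Cd36* had 0.165 to 2.63 and 0 to 0.345 TPM before W12, and at W12 *Fabp4* had 166 and 256 TPM and *Cd36* 16.8 and 21.2 TPM. *Fabp4* and *Cd36* are also made by capillary endothelial cells. The 5 endothelial markers summed to 0.156 to 1.86 TPM in the 8 libraries before W12 and to 46.2 and 102 TPM at W12, with *Pecam1*, the gene of the CD31 on which cells were sorted out, at 26.1 and 59.8 TPM. The part of endothelial RNA in these levels was not tested. Leaving out D0 replicate 2, 1 target rose and 1 fell at W1, 2 rose and 1 fell at W2, 2 fell at W6, and 2 rose and 4 fell at W12.

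*Thra*, the main thyroid hormone receptor of these cells (chromosome 11, 98740638 to 98769006), had 33.2 and 53.5 TPM at D0, 54.7 and 54.1 at W1, 58.7 and 58.5 at W2, 16.9 and 17.1 at W6 and 9.39 and 10.1 at W12. The W1 and W2 libraries lay close together and above both D0 libraries, both W6 libraries were below all of these, and both W12 libraries lower again. *Thra* fell by −1.26 (standard error 0.21, adjusted *P* = 0.00275) at W6 and −2.01 (standard error 0.21, adjusted *P* = 0.000174) at W12 against D0, by −1.73 (standard error 0.21, adjusted *P* = 0.00272) from W2 to W6 and by −0.75 (standard error 0.21, adjusted *P* = 0.0352) from W6 to W12 (limma with Benjamini-Hochberg adjustment). Without D0 replicate 2, *Thra* was higher than at D0 at W1, by 0.70 (adjusted *P* = 0.0292), and at W2, by 0.80 (adjusted *P* = 0.0150). The last 1075 bases of *Thra* (98767932 to 98769006) overlap the end of *Nr1d1* on the other strand. Whether the authors' quantification used strand is not given in the sources used here, so reads from there cannot be told apart; *Nr1d1* had 4.45 and 80.1 TPM in the D0 libraries. *Thrb* had 5.42 and 7.27 TPM at D0, 5.75 and 5.54 at W1, 4.90 and 5.98 at W2, 2.67 and 4.92 at W6 and 6.72 and 4.90 at W12. Both W6 libraries lay below those of D0 and W1, but *Thrb* was not called in any comparison or over time. The step of *Thra* from W6 to W12 lost its call without W6 replicate 1 (0.0962), W6 replicate 2 (0.0815), W12 replicate 1 (0.174) or W12 replicate 2 (0.107), and after median-ratio scaling (0.117). Its W6 fall against D0 did so with only the libraries compared (0.0626).

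Of 15 genes of thyroid and steroid hormone metabolism and transport that were found, 7 reached the mean of 1 TPM. Among those that carry or convert thyroid hormone, the transporter gene *Slc16a10* fell at W12, by −1.87 (adjusted *P* = 0.00104), and *Dio2*, whose enzyme activates the hormone, had 1.44 and 9.42 TPM at D0, 0.149 and 0.145 at W1, 0.0711 and 0.0164 at W2, 0.273 and 1.40 at W6 and 2.71 and 2.40 at W12, with D0 replicate 2 the highest library. Among the steroid enzymes, *Hsd17b2*, which inactivates estradiol and testosterone, had 0.0628 to 0.474 TPM up to W2, 13.1 and 6.37 at W6 and 1.53 and 2.65 at W12, and *Hsd17b7* fell by −1.57 (adjusted *P* = 0.000858) at W1 and −1.28 (adjusted *P* = 0.00137) at W2. Of the 5 without *Dio2* and *Hsd17b2*, none rose, and 1, 1, 2 and 3 fell at W1, W2, W6 and W12. In the fit without D0 replicate 2, 2, 1, 2 and 4 fell, *Slc16a10* among them at W12.

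The LXRs, receptors for oxysterols that control cholesterol export, were represented by *Nr1h2* (LXRbeta), which was among the most abundant receptors with 103 and 102 TPM at D0, 128 and 129 at W1, 114 and 128 at W2, 110.3 and 81.3 at W6 and 61.8 and 77.3 at W12. Both W12 libraries were below all others, and *Nr1h2* fell by −0.56 (standard error 0.18, adjusted *P* = 0.0309) at W12 (limma with Benjamini-Hochberg adjustment), a call lost without D0 replicate 1 (0.0692), D0 replicate 2 (0.0842) or W12 replicate 1 (0.183) and after median-ratio scaling (0.0522). *Nr1h3* (LXRalpha), the form of liver and macrophages, ranged from 0.493 to 1.53 TPM, with both W1 libraries (1.53 and 1.46 TPM) above all others. Of 8 LXR targets tested, 2 fell at W1, 1 rose at W2, 2 rose and 1 fell at W6, and 5 fell at W12. *Apoe*, which carries exported cholesterol, rose by 1.21 (adjusted *P* = 0.0147) at W2, a call lost after quantile normalization (0.0577), and fell by −1.51 (adjusted *P* = 0.00558) from W6 to W12. At W12 the cholesterol exporter gene *Abcg1* (−1.83 (adjusted *P* = 0.00735)) and *Srebf1*, which controls fatty acid synthesis (−1.31 (adjusted *P* = 0.00507)), were lower than at D0. Without D0 replicate 2, 1 target rose and 1 fell at W1, 2 rose at W2, 1 rose and 1 fell at W6, and *Apoe* and *Srebf1* fell at W12.

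*Nr3c1*, the glucocorticoid receptor, had 53.4 and 71.7 TPM at D0, 57.0 and 54.5 at W1, 55.3 and 49.4 at W2, 22.8 and 35.002 at W6 and 34.0 and 26.1 at W12. All 4 libraries of W6 and W12 were below all 6 of D0, W1 and W2, and W6 and W12 overlapped. The fall from D0 was −1.10 (standard error 0.23, adjusted *P* = 0.00873) at W6 and −1.03 (standard error 0.23, adjusted *P* = 0.00813) at W12 (limma with Benjamini-Hochberg adjustment), and that from W2 to W6 was −0.86 (standard error 0.23, adjusted *P* = 0.0401). Its calls were lost without D0 replicate 2 (0.0560) at W6, without D0 replicate 2 (0.0539) or W12 replicate 2 (0.0635) at W12, and without W2 replicate 1 (0.207), W2 replicate 2 (0.139) or W6 replicate 1 (0.118) from W2 to W6. *Nr3c2*, the mineralocorticoid receptor, reached at most 0.339 TPM, at D0, and was not tested.

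Of 12 glucocorticoid receptor targets, all tested, 1 rose and 5 fell at W1, 2 rose and 5 fell at W2, and 1 rose and 8 fell at W6 and again at W12. The metallothionein genes *Mt1* and *Mt2* fell by −2.60 (adjusted *P* = 0.00127) and −2.63 (adjusted *P* = 0.000583) at W1, when *Nr3c1* itself had changed by −0.15 (adjusted *P* = 0.747). *Klf9*, a transcription factor gene induced by glucocorticoids in keratinocytes, fell by −2.16 (adjusted *P* = 0.00653) at W1 and −3.71 (adjusted *P* = 0.000229) at W6. At W12 the falls were led by *Zbtb16* (−3.22 (adjusted *P* = 0.00323)), *Per1* (−3.14 (adjusted *P* = 0.00262)) and *Dusp1* (−2.52 (adjusted *P* = 0.000686)). *Dusp1* is also on the immediate-early list that was high at D0, and *Per1* is also counted among the clock genes below. *Sgk1* went the other way, with 71.0 and 70.1 TPM at D0, 170 and 136 at W1 and 335 and 316 at W2. All of its later libraries were above both D0 libraries. From W6 to W12, 4 targets rose and none fell, with *Mt2* at 1.67 (adjusted *P* = 0.00329), *Mt1* at 1.52 (adjusted *P* = 0.00972) and *Klf9* at 1.34 (adjusted *P* = 0.0297). Without D0 replicate 2, 1 rose and 5 fell at W1, 3 and 5 at W2, 2 and 5 at W6, and 1 and 5 at W12, where *Zbtb16* changed by −2.07 (adjusted *P* = 0.00254) and *Per1* by −2.22 (adjusted *P* = 0.00990). Of 8 chaperone genes that hold the unliganded receptor, 1 rose and 1 fell at W2, 1 rose at W6, and 1 rose and 1 fell at W12. The gene that rose at W2, *Fkbp5*, is also on the list of targets and was counted there as well. Without D0 replicate 2, 1 rose and 2 fell at W2, 1 rose at W6 and 2 fell at W12. From W2 to W6, 3 rose: the cochaperone genes *Ptges3* (0.76 (adjusted *P* = 0.0100)), *Stip1* (0.68 (adjusted *P* = 0.0277)) and *Fkbp4* (0.68 (adjusted *P* = 0.0269)).

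The NR4A receptors are orphan receptors without a known hormone whose genes are switched on within minutes of a stimulus. *Nr4a1* (chromosome 15, 101254269 to 101274795, plus strand) had 1517 and 3649.7 TPM at D0, 212 and 130.1 at W1, 238 and 77.0 at W2, 235 and 158 at W6 and 213 and 261 at W12. Both D0 libraries were above every later library, D0 replicate 2 was above D0 replicate 1, and the later timepoints overlapped. The fall from D0 was −3.82 (standard error 0.55, adjusted *P* = 0.00391) at W1, −4.11 (standard error 0.55, adjusted *P* = 0.00204) at W2, −3.60 (standard error 0.55, adjusted *P* = 0.00211) at W6 and −3.31 (standard error 0.55, adjusted *P* = 0.00204) at W12 (limma with Benjamini-Hochberg adjustment). *Nr4a3* had 10.7 and 40.7 TPM at D0, 6.996 and 4.39 at W1, 4.81 and 2.90 at W2, 4.33 and 2.58 at W6 and 2.42 and 1.73 at W12. All later libraries were below both D0 libraries, and the fall was −2.22 (standard error 0.53, adjusted *P* = 0.0255) at W2, −2.34 (standard error 0.53, adjusted *P* = 0.0116) at W6 and −2.86 (standard error 0.53, adjusted *P* = 0.00332) at W12. *Nr4a2* had 7.52 and 27.8 TPM at D0, 10.8 and 9.84 at W1, 5.85 and 4.98 at W2, 9.05 and 3.69 at W6 and 5.07 and 6.59 at W12. D0 replicate 2 was the highest library, D0 replicate 1 lay within the range of the later ones, and *Nr4a2* was not called at any timepoint.

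The fall of *Nr4a1* was called at all 4 timepoints under all alternatives, and without D0 replicate 2 it was −3.18 (adjusted *P* = 0.0226) at W1 and −2.68 (adjusted *P* = 0.0163) at W12. The change of *Nr4a3* without that library was −1.43 (adjusted *P* = 0.0441) at W6 and −1.94 (adjusted *P* = 0.0105) at W12. Its call was lost without D0 replicate 2 (0.0777), W2 replicate 1 (0.0741) or W2 replicate 2 (0.161) at W2 and without W6 replicate 2 (0.0608) at W6. Other immediate-early and stress genes moved the same way in the same comparisons. Of 20 tested, 14 fell at W1, 12 fell and 1 rose at W2, 14 fell at W6, and 15 fell and 1 rose at W12. *Fosl1* fell by −3.85 (adjusted *P* = 0.00269) at W1 and −4.71 (adjusted *P* = 0.000812) at W2, *Atf3* by −3.90 (adjusted *P* = 0.00653) at W1, and *Egr1* by −3.62 (adjusted *P* = 0.000612) at W12, or −2.98 (adjusted *P* = 0.00396) without D0 replicate 2. The number that fell without D0 replicate 2 was 10, 8, 13 and 13 at W1, W2, W6 and W12. Such genes also respond to cell isolation, and the part of handling before the sort in the D0 level of the NR4A genes was not tested.

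The promoters of the NR4A genes are shown because all 3 are dense in TGACG, the core of the cAMP response element bound by CREB and ATF proteins. Each window is the 250 bases before the RefSeq start on GRCm38.p6 (*Nr4a1* chr15:101266596-101266845, plus strand; *Nr4a2* chr2:57124004-57124253, minus strand; *Nr4a3* chr4:48045055-48045304, plus strand), and capitals mark TGACG or its reverse complement CGTCA. The motif was chosen after these sequences had been seen. Each of the 3 windows holds 4 matches. At least 1 match was found in 17.8% of all 32851 windows and in 12 of the 50 receptor windows, and 4 or more in 0.137% of all windows.
Nr4a1 promoter: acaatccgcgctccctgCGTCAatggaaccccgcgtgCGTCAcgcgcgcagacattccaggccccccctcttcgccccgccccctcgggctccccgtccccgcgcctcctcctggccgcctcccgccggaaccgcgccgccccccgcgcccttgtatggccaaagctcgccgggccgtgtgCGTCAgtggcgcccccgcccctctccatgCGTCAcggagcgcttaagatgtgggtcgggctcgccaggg
Nr4a2 promoter: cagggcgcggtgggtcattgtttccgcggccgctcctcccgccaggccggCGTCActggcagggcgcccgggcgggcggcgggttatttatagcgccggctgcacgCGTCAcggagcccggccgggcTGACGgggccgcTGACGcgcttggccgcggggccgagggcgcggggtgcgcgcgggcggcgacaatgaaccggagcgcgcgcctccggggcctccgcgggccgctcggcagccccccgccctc
Nr4a3 promoter: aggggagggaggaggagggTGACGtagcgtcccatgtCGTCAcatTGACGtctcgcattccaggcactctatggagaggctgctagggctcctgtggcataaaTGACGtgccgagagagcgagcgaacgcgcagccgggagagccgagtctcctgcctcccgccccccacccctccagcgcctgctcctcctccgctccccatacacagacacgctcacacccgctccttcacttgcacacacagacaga

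The RORs activate and the REV-ERBs repress clock genes from shared response elements. *Rora* had 105 and 173 TPM at D0, 44.7 and 35.7 at W1, 26.2 and 24.6 at W2, 4.90 and 24.8 at W6 and 45.5 and 30.7 at W12. All 8 later libraries were below both D0 libraries, W6 replicate 1 was the lowest, and W12 overlapped W1. *Rora* fell by −2.36 (standard error 0.57, adjusted *P* = 0.0265) at W2, −3.46 (standard error 0.57, adjusted *P* = 0.00299) at W6 and −1.82 (standard error 0.57, adjusted *P* = 0.0312) at W12 (limma with Benjamini-Hochberg adjustment). The W6 call held without each single library, that at W2 was lost without D0 replicate 2 (0.120), W2 replicate 1 (0.110) or W2 replicate 2 (0.133), and that at W12 without D0 replicate 2 (0.167), W12 replicate 1 (0.0783) or W12 replicate 2 (0.161). *Rorb* had at most 0.117 TPM and was not tested.

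The REV-ERB genes differed widely between replicates at D0 and W6. *Nr1d1* had 4.45 and 80.1 TPM at D0, 10.5 and 10.2 at W1, 49.8 and 41.2 at W2, 40.0 and 3.79 at W6 and 9.47 and 13.9 at W12. D0 replicate 2 was the highest library and W6 replicate 2 and D0 replicate 1 were the lowest, while the replicates of W1, W2 and W12 lay close together. *Nr1d2* had 6.01 and 28.7 TPM at D0, 16.8 and 14.1 at W1, 24.7 and 25.2 at W2, 18.3 and 5.82 at W6 and 12.2 and 13.0 at W12, with the same libraries high and low. Neither was called in any comparison or over time. The clock output genes *Dbp* and *Tef*, which the core clock drives, were high and low in the same replicates of D0 and W6. *Dbp* was 1.23 and 6.54 TPM at D0, 1.62 and 1.61 at W1, 17.7 and 15.53 at W2, 12.4 and 1.70 at W6 and 4.64 and 3.63 at W12, and *Tef* 6.81 and 18.4 TPM at D0, 9.51 and 7.50 at W1, 35.6 and 36.3 at W2, 15.9 and 7.55 at W6 and 5.38 and 7.18 at W12. The times of day at which mice were taken are not given in the sources used here.

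Of 14 clock partners and targets tested of 15, 2 fell at W1, 1 rose and 3 fell at W2, 1 rose and 6 fell at W6, and 1 rose and 5 fell at W12. *Npas2*, a partner of BMAL1, had 9.86 and 23.1 TPM at D0, 9.32 and 11.9 at W1, 3.74 and 3.34 at W2, 0.345 and 1.62 at W6 and 2.97 and 1.58 at W12. It stepped down from W1 to W6 and fell by −1.84 (adjusted *P* = 0.0236) at W2, −3.11 (adjusted *P* = 0.00134) at W6 and −2.34 (adjusted *P* = 0.00324) at W12. The repressor gene *Cry2* fell by −2.36 (adjusted *P* = 0.000915) at W12, and *Nfil3*, which REV-ERB represses, fell by −1.71 (adjusted *P* = 0.0206) at W1 and −2.36 (adjusted *P* = 0.00213) at W6. Without D0 replicate 2, none was called at W1, *Dbp* and *Tef* rose and *Arntl* fell at W2, *Cry2*, *Nfil3* and *Npas2* fell at W6, and 4 fell at W12.

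**Figure D4:**
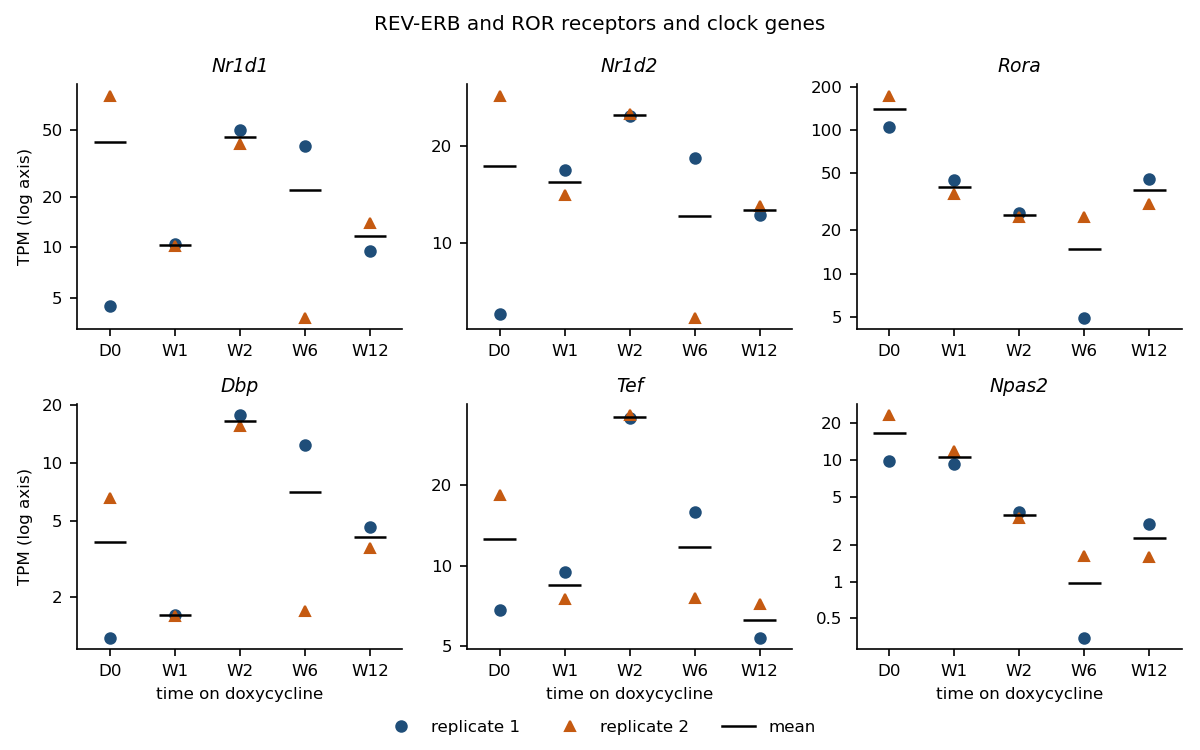
TPM (log axis) of the REV-ERB genes *Nr1d1* and *Nr1d2*, of *Rora* and of the clock genes *Dbp*, *Tef* and *Npas2* in each library, by time on doxycycline, with a circle for replicate 1, a triangle for replicate 2 and a bar for the mean. *Nr1d1*, *Nr1d2*, *Dbp* and *Tef* are low in D0 replicate 1 and W6 replicate 2 and high in D0 replicate 2, W6 replicate 1 and W2, whereas *Rora* and *Npas2* have their highest mean at D0.

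The NR2C and NR2F receptors are orphan receptors that bind repeats of the same hexamer. *Nr2c2* (TR4) was the other receptor that rose early, with 8.19 and 11.02 TPM at D0, 14.6 and 12.1 at W1, 20.5 and 18.5 at W2, 12.04 and 14.4 at W6 and 7.46 and 6.95 at W12. Both W2 libraries were above all others, and both W12 libraries below all others. *Nr2c2* rose by 0.96 (standard error 0.20, adjusted *P* = 0.0132) at W2 and fell by −0.79 (standard error 0.20, adjusted *P* = 0.0246) from W6 to W12 (limma with Benjamini-Hochberg adjustment). *Nr2c1* (TR2), its dimer partner, had 9.57 and 11.2 TPM at D0, 8.58 and 7.84 at W1, 7.50 and 5.90 at W2, 5.40 and 6.91 at W6 and 5.42 and 6.18 at W12. Both D0 libraries were the highest, and *Nr2c1* fell by −0.68 (standard error 0.20, adjusted *P* = 0.0323) at W6 and −0.74 (standard error 0.20, adjusted *P* = 0.0169) at W12. *Nr2f6* (EAR2), among the most abundant receptors at every timepoint, had 127 and 146 TPM at D0, 186 and 191 at W1, 119 and 129 at W2, 132 and 92.4 at W6 and 66.8 and 72.8 at W12. Its W1 libraries were the highest and its W12 libraries the lowest, and it fell by −0.96 (standard error 0.18, adjusted *P* = 0.00319) at W12 and by −0.65 (standard error 0.18, adjusted *P* = 0.0333) from W6 to W12. The rise of *Nr2c2* lost its call without W2 replicate 1 (0.104) or W2 replicate 2 (0.0743), its fall without W6 replicate 2 (0.0742), W12 replicate 1 (0.110) or W12 replicate 2 (0.113), the calls of *Nr2c1* without D0 replicate 2 (0.147) or W6 replicate 1 (0.107) at W6 and without D0 replicate 2 (0.0854), W12 replicate 1 (0.0982) or W12 replicate 2 (0.0531) at W12, and the fall of *Nr2f6* from W6 to W12 without W6 replicate 1 (0.123), W12 replicate 1 (0.175) or W12 replicate 2 (0.0918). The falls of *Nr2c2* and *Nr2f6* from W6 to W12 were also lost after median-ratio scaling (0.0737 and 0.147).

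The COUP-TF genes *Nr2f1* and *Nr2f2*, which are known from mesenchyme and endothelium, were under the filter. *Nr2f1* reached 0.586 TPM, in W6 replicate 2. *Nr2f2* had 1.15 and 0.122 TPM at D0, 0.0533 and 0.0373 at W1, 0.0515 and 0.0635 at W2, 0.0434 and 1.12 at W6 and 1.04 and 2.52 at W12. It was above 1 TPM in D0 replicate 1, W6 replicate 2 and both W12 libraries and at or below 0.122 TPM in the others. Fibroblast markers summed to 13.2 and 34.7 TPM at D0, 27.8 and 36.0 at W1, 20.3 and 17.5 at W2, 4.38 and 61.3 at W6 and 19.3 and 34.6 at W12, of which *Col6a1* and *Dcn* made up all but 0.216 to 2.43 TPM. Among the 5 libraries with the least *Nr2f2*, the 4 of W1 and W2 had sums within the range of the others and W6 replicate 1 had the lowest sum. *Dcn* alone was 1.44 and 1.63 TPM at D0, 0.199 and 0.103 at W1, 2.06 and 1.18 at W2, 1.46 and 51.2 at W6 and 13.2 and 27.2 at W12, and it was highest in W6 replicate 2 and both W12 libraries; its part and that of the endothelial RNA at W12 in the level of *Nr2f2* were not tested.

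Of the estrogen-related receptors, which drive genes of oxidative metabolism without a known hormone, *Esrra* had 29.9 and 34.1 TPM at D0, 34.8 and 33.3 at W1, 27.5 and 39.5 at W2, 31.2 and 22.7 at W6 and 17.6 and 19.2 at W12. Both W12 libraries were below all others, and it fell by −0.76 (standard error 0.21, adjusted *P* = 0.0190) at W12 (limma with Benjamini-Hochberg adjustment), a call lost without D0 replicate 2 (0.0914), W12 replicate 1 (0.0989) or W12 replicate 2 (0.0638) and after quantile normalization (0.0634). *Esrrb* had at most 0.0293 TPM. *Nr6a1* (GCNF), an orphan receptor of germ cells and early embryos, was low, with 3.09 and 3.96 TPM at D0, 2.18 and 2.76 at W1, 1.54 and 1.25 at W2, 1.18 and 1.47 at W6 and 1.70 and 1.25 at W12. Both D0 libraries were the highest, and it fell by −0.91 (standard error 0.23, adjusted *P* = 0.0282) at W2, −0.96 (standard error 0.23, adjusted *P* = 0.0134) at W6 and −0.87 (standard error 0.23, adjusted *P* = 0.0146) at W12. Its calls were lost without D0 replicate 2 (0.111), W2 replicate 1 (0.109) or W2 replicate 2 (0.191) at W2, D0 replicate 2 (0.0765) at W6, and D0 replicate 2 (0.0814) or W12 replicate 2 (0.0777) at W12. *Nr5a2* reached at most 0.108 TPM and was not tested.

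Of the sex steroid receptors, *Esr1* (ERalpha) passed the filter through D0 replicate 2, without which its mean was 0.973 TPM. It had 2.23 and 18.3 TPM at D0, 0.109 and 0.144 at W1, 0.437 and 0.108 at W2, 0.320 and 1.34 at W6 and 2.38 and 1.68 at W12. D0 replicate 2, the library against its male label, was far above the others, W12 overlapped D0 replicate 1, and W1, W2 and W6 were below both D0 libraries. Its log2 changes from D0 at W1, W2 and W6 were −2.81, −2.65 and −2.17, and without D0 replicate 2 −1.52, −1.36 and −0.88. These are given with no test. *Esr2* reached 0.329 TPM, in W6 replicate 2, and *Pgr* 0.359 TPM. Of 4 estrogen receptor targets tested, *Areg*, an EGFR ligand gene, fell by −2.48 (adjusted *P* = 0.00467) at W1 and −2.33 (adjusted *P* = 0.00444) at W2 and rose by 1.77 (adjusted *P* = 0.00581) at W12, where *Cxcl12* fell by −0.83 (adjusted *P* = 0.0439). The fall of *Cxcl12* was lost without D0 replicate 2.

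**Figure D5:**
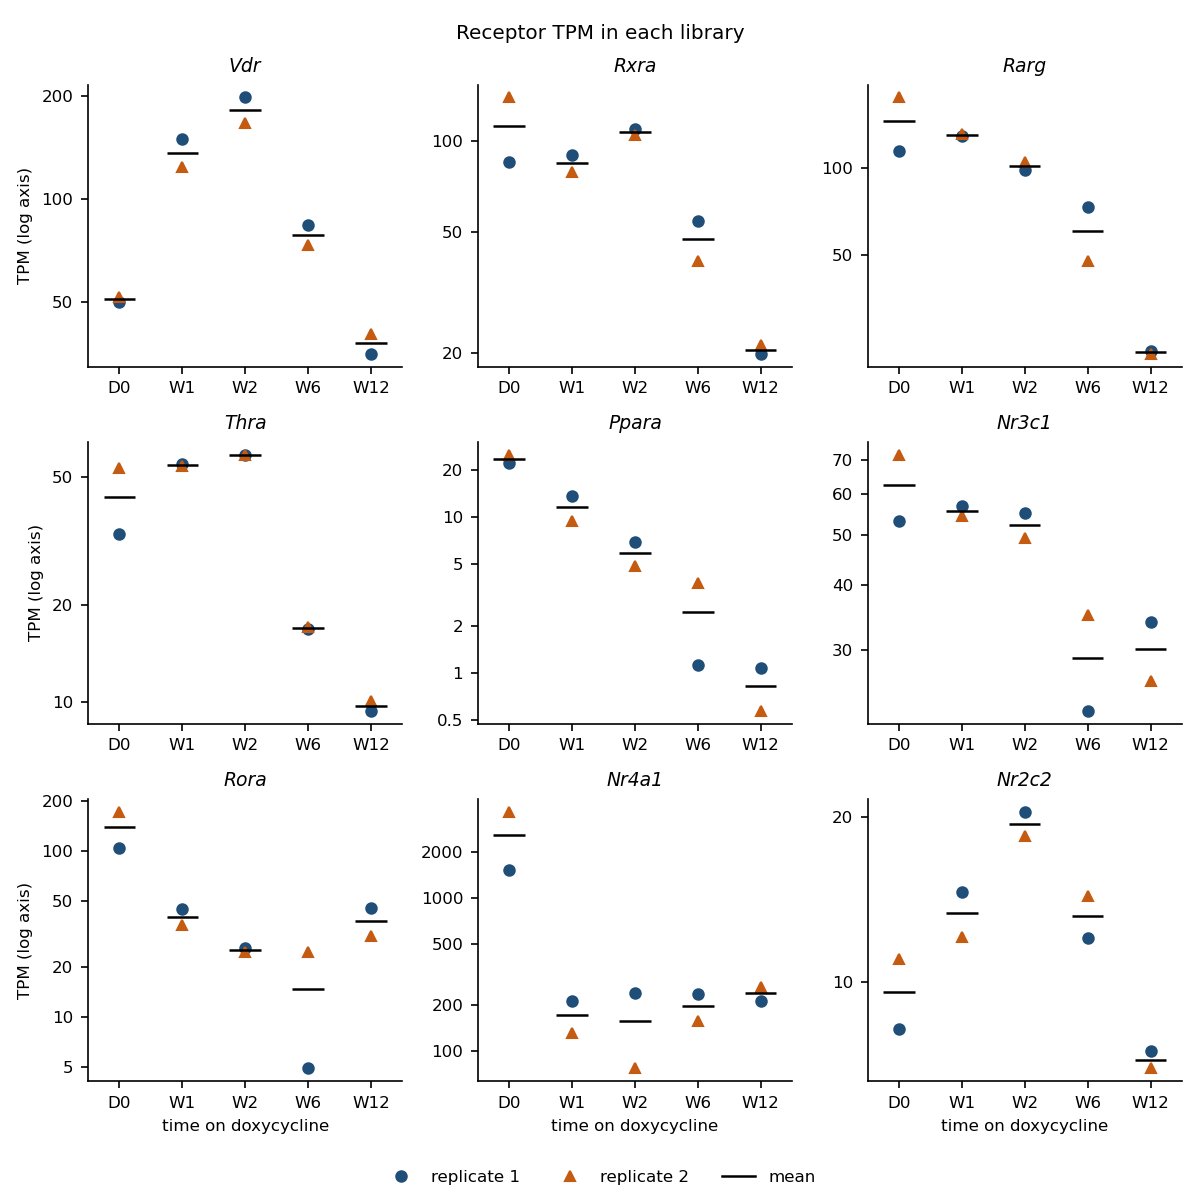
TPM (log axis) of 9 receptors in each library, by time on doxycycline, with a circle for replicate 1, a triangle for replicate 2 and a bar for the mean. *Vdr* and *Nr2c2* are highest at W2, *Nr4a1* and *Rora* are highest at D0, *Ppara* steps down at each timepoint, and *Rxra*, *Rarg*, *Thra* and *Nr3c1* are lower in both W6 libraries than in either W2 library.

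Of 14 nuclear receptor genes outside the list of 35, 2 were tested, and *Nr0b1*, *Nr1i2* and *Hnf4a* were listed at 0 in all 10 libraries. Receptors act through coactivator and corepressor proteins. Of 14 coactivator genes (without 1 that passed the filter through W6), none was called at W1 or W2, 4 fell at W6, and 1 rose and 10 fell at W12. Of all genes tested, 14.1% fell at W6, and 17.9% rose and 25.1% fell at W12. The median log2 change of the 14 at W12 was −1.06, beside −0.08 over all genes. The p160 coactivator genes *Ncoa1* and *Ncoa3* and the acetyltransferase gene *Ep300* fell by −1.78 (adjusted *P* = 0.000269), −1.49 (adjusted *P* = 0.00199) and −1.25 (adjusted *P* = 0.00302) at W12, and *Carm1*, an arginine methyltransferase gene, by −1.21 (adjusted *P* = 0.00456) from W6 to W12. Of 10 corepressor genes, 2 rose at each of W1 and W2, 2 rose and 1 fell at W6, and 1 rose and 4 fell at W12. *Nr2c2ap*, whose product binds TR4, rose by 0.88 (adjusted *P* = 0.0187) at W1 and 0.86 (adjusted *P* = 0.0156) at W2, and the deacetylase gene *Hdac3* by 0.67 (adjusted *P* = 0.0232) at W1. From W6 to W12 *Hr*, the corepressor of VDR in hair follicles, fell by −1.99 (adjusted *P* = 0.0252), a call lost after median-ratio scaling (0.0551). Without D0 replicate 2, 1 coactivator rose at W1, none was called at W2 or W6 and 1 rose and 8 fell at W12, and of the corepressors *Hr* and *Nr2c2ap*, but not *Hdac3*, rose at W1, W2 and W6, and *Nrip1* was among the 2 that fell at W12.

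Cell type markers moved over the same timepoints as the late falls of receptors. Of 9 basal epidermal markers, none was called at W1, 1 fell at W2, 7 fell at W6, and 1 rose and 6 fell at W12, with *Krt15* at −5.37 (adjusted *P* = 5.73e-05) at W12. Of 8 suprabasal markers, 2 rose at each of W1 and W2, 4 rose and 1 fell at W6, and 3 rose and 2 fell at W12, and they summed to 5919.8 and 2085 TPM at D0 and 13628 and 11986 at W12. Of these sums *Krtdap*, a keratinocyte differentiation gene, gave 3314 and 647 TPM at D0 and 11060.2 and 9986 at W12, and the other 7 summed to 2606 and 1438 TPM at D0 and 2568 and 2000.0 at W12, with overlap. Of 8 proliferation genes, 1 fell at W1, 4 rose at W6 and 3 at W12. With D0 replicate 2 left out, 1 basal marker fell at W2, 6 at W6 and 6 at W12, 1, 2, 3 and 2 suprabasal markers rose at the 4 timepoints with 1 lower at W6 and 2 at W12, and 4 proliferation genes fell at W1 and 2 at W2, while 3 rose at W6 and 2 at W12. The D0 replicates stood apart in the sum of the proliferation genes (733 and 374 TPM) as in that of the suprabasal markers. Of the markers of other cell types, *Cd74* and the endothelial genes were given above. Of the 7 fibroblast markers, *Col6a1* ranged from 2.70 to 35.4 TPM and *Dcn* from 0.103 to 51.2 TPM. The melanocyte markers summed to 1.27 to 11.8 TPM before W12 and 12.8 and 11.2 at W12. Of the other marker lists, 1 of 3 sebocyte genes rose and 1 fell at W2, 2 rose and 1 fell at W6 and at W12, 1 of 2 fibroblast genes fell at W6 and W12, the 1 immune gene tested, *Cd74*, fell at W6 and rose at W12, and 1 of 2 melanocyte genes rose at W12. In the fit without D0 replicate 2, no sebocyte gene was called at W2, 2 rose at W6 and 1 rose and 1 fell at W12, no fibroblast gene was called, the calls of *Cd74* held, and 1 melanocyte gene rose at W6 and at W12. In sorted cells measured in bulk, fewer cells of a kind and less RNA per cell cannot be told apart, and the part of these shifts in the receptor changes was not tested.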

How the data were processed

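RNA of sorted EpdSCs was measured by RNA-seq in 10 libraries, grouped by the timepoint and replicate number in their labels. The authors trimmed reads with Skewer, quantified transcripts with Salmon 1.4.0 against a GENCODE M24 index of GRCm38 with the transgene added, and summed them to genes with Tximport 1.12.3. They deposited TPM per gene, which total 1000000 in each library and do not carry its depth. The study's own DESeq2 test needs counts and could not be run on TPM. The placode libraries of the series, deposited as the authors' own comparison (a mean of normalized counts, fold changes and p-values), were not used.

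Genes whose mean reached 1 TPM (13110 of 54332) were tested on log2(TPM + 1) with limma 3.58.1 in R 4.3.3, in 1 fit of the 5 timepoint means (eBayes with trend), with Benjamini-Hochberg adjustment over all of them and calls at an adjusted P under 0.05. P values measure the spread between 2 libraries a timepoint. The fit was checked on simulated data.

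The 35 receptors and the 22 gene and marker lists were chosen with earlier results of these data known. Of a list, at most the 3 genes with the largest change among those called in a comparison were to be named. Other listed genes given with values or a call (Cyp24a1, Dbp, Tef, Arntl, Nrip1, Pecam1, Dcn, Stra6, Dhrs3, Sgk1) were chosen after their values had been seen. Some listed genes that this rule would name are counted but not reported here by name.

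Alternatives changed the pseudocount (0.1), the filter (any TPM, or a mean of 5 TPM), the scaling (median-ratio or quantile), the trend of eBayes, the libraries fitted (only those compared, or with each replicate left out, a lone library being assumed to vary like the rest), the call (an absolute log2 change of 1 as well) and the model (a replicate block). A crossed block was added after the data had been seen. Same-numbered libraries are different mice.

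Gene positions are from GENCODE M21 (GRCm38), which held all 35 receptor IDs. Promoters are the 250 bases before RefSeq starts on GRCm38.p6, with windows for 33 receptors (not Thra and Nr3c1). Python 3.11.15, numpy 2.4.6, pandas 2.3.3 and matplotlib 3.10.9 were used for the rest.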

Additional observations from a re-analysis of the deposited data

How the results depend on the processing

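Of 48 changes of single receptors called in the 6 comparisons (without Esr1), 17 kept their call under each refit, 31 lost it under at least 1, and 0 changed direction. Of the 17, 1 (Nr2f6 at W12) had an absolute log2 change under 1. A fit of every gene with any TPM lost 16, a fit of only the libraries compared 19, each of the scalings 5, and the left-out replicates 27. Calls over all genes moved as well, from 15.7% to 8.28% at W2, 32.4% to 8.34% at W6 and 20.2% to 6.77% from W6 to W12 with only the libraries compared, to 2.59% at W2, 7.96% at W6, 2.41% (from 16.3%) from W2 to W6 and 16.2% (from 57.5%) over time with every gene that had any TPM, to 14.5% and 17.8% from W6 to W12 after median-ratio scaling and quantile normalization, and to 10.9%, 18.0% and 28.5% (from 43.0%) at W2, W6 and W12 without D0 replicate 2. At W2 they came to 5.96% and 4.97% without W2 replicate 1 or 2, from W2 to W6 to 1.58% without W2 replicate 1, and from W6 to W12 to 5.80% without W12 replicate 1. The receptor counts that follow include Esr1, whose tests against D0 are not independent of the filter. Without Esr1 and Nr1h3, 1 rose and 1 fell at W1, 2 rose and 5 fell at W2, and 2 rose and 11 fell at W6. Over time 18 of these 22 varied. The calls of Esr1 at W1, W2 and W6 are among those lost with every gene that had any TPM and with only the libraries compared. The number of receptors called at W2 against D0 was 8, or 3 with every gene that had any TPM, 4 with only the libraries compared, and 2 to 10 with 1 replicate left out (2 without W2 replicate 2, 3 without W2 replicate 1, 4 without D0 replicate 2). At W6 it was 14, or 9 and 3 under the same pair of alternatives and 8 to 14 with 1 replicate left out (8 without D0 replicate 2). At W12 it was 16, or 10 at an absolute log2 change of at least 1 and 8 to 16 with 1 replicate left out (8 without D0 replicate 2). From W2 to W6 it was 4, or 2 with every gene that had any TPM and 1 to 5 with 1 replicate left out (1 without W2 replicate 1). From W6 to W12 it was 6, or 3 each after median-ratio scaling, after quantile normalization, with only the libraries compared and at an absolute log2 change of at least 1, and 1 to 7 with 1 replicate left out (1 without W12 replicate 1). Over time it was 19, or 12 with every gene that had any TPM, 12 at an absolute log2 change of at least 1, and 14 to 19 with 1 replicate left out. At W1 it was 3, and 2 to 4 with 1 replicate left out. The share of all genes with an absolute log2 change of at least 1 is not given here. The receptor counts under that rule can therefore not be set against all genes. More genes in the fit raise the number of tests, and fewer libraries leave fewer residual degrees of freedom. Beyond that the cause was not tested. Under the replicate block, 3, 8, 14 and 16 receptors were called at W1, W2, W6 and W12, 3 from W2 to W6, 5 from W6 to W12 and 17 over time. The shares of all genes called under it were 8.06%, 13.0%, 28.7% and 40.1%, then 10.6% and 16.5%, and 52.2% over time. Deviations of same-numbered libraries correlated between −0.129 and 0.0934, so the numbers do not pair the libraries. With crossed numbers, added after the data had been seen, 4 receptors were called at W1, 14 at W6 and 7 from W6 to W12. Of all genes, 9.34%, 32.7% and 20.3% were called there. Depth is unknown for these TPM, so receptors under 1 TPM can be called neither absent nor unchanged.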
